A study of Mus musculus with 2 samples.

Results

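Cells labelled as immature lymphocytes, which carried RNA of the antigen receptor recombination machinery, were examined in the aortic arch of Apoe-/- mice. The cells were the barcodes with at least 1 UMI (unique molecular identifier, 1 counted RNA molecule) of Dntt or Rag1 among those that passed the study's filter, which kept barcodes that reached 200 genes and 200 UMIs and did not exceed 30% mitochondrial UMIs. Barcodes with both Pecam1 and Cdh5 (the study's endothelial gate) were left out, as were barcodes in which C1qa, C1qb and C1qc together made up 0.2% of UMIs or more (a macrophage gate). In all, 50 of 8155 kept cells met this rule, 30 of 5416 in the library of the normal diet (ND) and 20 of 2739 in the library of the high-fat diet (HFD). The levels of Dntt, Rag1 and the gate genes chose the cells, so those levels are given as a description only.

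Each library was a pool of the cells of 2 aortas from male Apoe-/- C57BL/6 mice aged 16 weeks. Apoe clears remnant lipoproteins, and mice without it have high plasma cholesterol on any diet. The ND animals carried the same deletion as the HFD animals. The ND animals ate chow, and the HFD animals ate a feed high in fat and cholesterol, called the Western diet in the study. With 1 library per diet there was no replicate, no test was made between the diets or between groups of cells, and diet, library, sequencing depth and animals cannot be told apart. Levels are given as CPM (the UMIs of a gene per 1000000 UMIs of its group), and all intervals are exact 95% intervals that cover counting error only.

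Developing lymphocytes build their antigen receptor genes by V(D)J recombination. Rag1 and Rag2 together cut the DNA at recombination signals, and Dntt, the terminal deoxynucleotidyl transferase, adds untemplated bases at the joints. In the thymus, T cell precursors pass from a stage without Cd4 and Cd8 (double-negative) through a stage with both (double-positive) to a mature stage with one of them, and the recombinase genes are switched off once a receptor has passed selection. B cell precursors use the same enzymes in the bone marrow, where they are also marked by the surrogate light chain. Mature lymphocytes of blood and tissues have shut down both genes.

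The 2 genes of the rule and Cd3g, a chain of the CD3 complex that carries the T cell receptor signal, are shown here with the bases just upstream of their start sites, as a description only. In GRCm38 (GENCODE M21), Rag1 is at chr2:101638282-101649501 on the minus strand, Dntt at chr19:41029275-41059525 on the plus strand, Cd3g at chr9:44969572-44980431 on the minus strand and Cd8b1 at chr6:71322788-71337494 on the plus strand; all are protein-coding genes. The 250 bases before the RefSeq start (GRCm38.p6) follow 5′ to 3′ for Rag1 (chr2:101649533-101649782, minus strand), Dntt (chr19:41029025-41029274, plus strand) and Cd3g (chr9:44980432-44980681, minus strand), with matches to the E-box CAGNTG and to the Runx motif TGTGGT on either strand in capitals.
Rag1: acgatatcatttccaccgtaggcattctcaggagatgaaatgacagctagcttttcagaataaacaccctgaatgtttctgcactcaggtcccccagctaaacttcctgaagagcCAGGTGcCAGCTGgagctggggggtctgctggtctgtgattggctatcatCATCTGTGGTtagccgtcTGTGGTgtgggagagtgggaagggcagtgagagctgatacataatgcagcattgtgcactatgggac
Dntt: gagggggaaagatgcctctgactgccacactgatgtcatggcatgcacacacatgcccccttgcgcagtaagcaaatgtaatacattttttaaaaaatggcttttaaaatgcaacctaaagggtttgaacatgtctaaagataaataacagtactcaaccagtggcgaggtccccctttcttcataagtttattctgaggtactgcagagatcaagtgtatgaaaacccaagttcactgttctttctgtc
Cd3g: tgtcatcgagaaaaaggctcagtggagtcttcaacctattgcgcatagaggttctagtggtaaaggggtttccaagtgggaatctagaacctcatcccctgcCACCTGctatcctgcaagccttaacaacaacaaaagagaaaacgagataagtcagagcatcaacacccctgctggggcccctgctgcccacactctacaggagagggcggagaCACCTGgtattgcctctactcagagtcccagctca

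The Rag1 window held 3 E-box matches and 2 Runx matches, and one E-box match (CATCTG, the reverse strand of CAGATG) overlapped one Runx match. Among the 32851 windows of this length in the RefSeq table, 3.25% held at least 3 E-box matches and 1.27% at least 2 Runx matches. The Cd3g window held 2 E-box matches, a number that 13.2% of windows reached, and the Dntt window held neither motif in these letters. A promoter entry was found for 3 of the 4 marker genes, Dntt, Rag1, Cd8b1 and Cd3g, and a match describes letters, not binding.

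The 30 ND cells held 114203 UMIs, with 969 to 14363 per cell and a median of 3019, and the 20 HFD cells held 131060 UMIs, with 3653 to 17415 per cell and a median of 5394.5. Over all kept cells the medians were 3732.5 and 5336 UMIs. Of the barcodes, 39 occurred in both libraries, 1 of them kept in both, and none of the 50 cells was among them. A doublet caller (Scrublet) marked 0 of all ND and 1 of all HFD kept cells, which is too few to be of use, so the highest 6% of scores were examined instead, and they held 1 of the ND and 3 of the HFD cells described here.

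Dntt or Rag1 was found in 0.554% of ND kept cells (95% interval 0.374 to 0.790%) and in 0.730% of HFD kept cells (0.447 to 1.13%). Free RNA can give a UMI to a cell that does not express the gene, so the same share was read in fibroblasts, which should lack both genes. It was 0 of 1079 fibroblasts in ND (median 3825 UMIs, interval to 0.341%) and 3 of 459 in HFD (0.654%, median 4496 UMIs), and 2 of those 3 barcodes also had T lineage genes. Fibroblasts were counted outside both gates, so those 3 barcodes met the rule and were themselves among the HFD cells described here. They are thus no independent background in HFD. Later values of fibroblasts were likewise not cleared of cells with Dntt or Rag1. In HFD the share over all kept cells was near that of fibroblasts and was not read as a level of expression. Among T lineage cells, the share was 25 of 349 in ND (7.16%, interval 4.69 to 10.4%, median 2598 UMIs) and 18 of 49 in HFD (36.7%, 23.4 to 51.7%, median 5089 UMIs), far above fibroblasts of the same library in both. After each cell was thinned to 1000 UMIs, which left out 2 of these cells in ND and 0 in HFD, the T lineage shares were 4.90% and 24.5%. The HFD share of T lineage cells thus lay above the ND share before and after thinning, without a replicate of either library.

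Dntt had 53 UMIs in 24 of the 30 ND cells (464 CPM, 348 to 607) and 52 UMIs in 15 of the 20 HFD cells (397 CPM, 296 to 520), with at most 9 and 13 UMIs in a cell. Rag1 had 57 UMIs in 25 ND cells (499 CPM, 378 to 647) and 31 in 16 HFD cells (237 CPM, 161 to 336), with at most 5 UMIs in a cell in each library. Both genes were found together in 19 of 30 and 11 of 20 cells, Dntt alone in 5 and 4, and Rag1 alone in 6 and 5. Cells just inside the rule, with a single UMI of the pair, numbered 4 in each library, and 3 of those in ND and 2 in HFD had T lineage genes. Rag2, which lies next to Rag1 on the chromosome and is needed for the cut, had only 3 UMIs in ND and 2 in HFD, in 2 cells each.

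Most of the cells were of the T lineage. Over both libraries, Trbc2 stood at 1802 CPM in them against 29.1 CPM in all other kept cells, Trbc1 at 840 against 16.8 CPM, Satb1 at 791 against 27.6 CPM, Tcf7 at 530 against 8.87 CPM, Myb at 449 against 4.83 CPM and Cd8b1 at 322 against 4.76 CPM. A cell was placed by 15 T lineage genes and 14 B lineage genes, none of them part of the rule: T where at least 2 T genes were found and more of them than B genes, and B the other way round. By this reading 25 of 30 ND cells (83.3%, interval 65.3 to 94.4%) and 18 of 20 HFD cells (90.0%, 68.3 to 98.8%) were T lineage, 3 and 1 were B lineage, and 2 and 1 were undecided. All 11 HFD cells with both Dntt and Rag1 were T lineage, as were 17 of the 19 in ND. These lineage genes are shared with mature T cells and do not bear on immaturity. The undecided cells had no T lineage gene and at most 1 B lineage gene, so the label of lymphocytes was not borne out for them. It was also doubtful for some placed cells, which stay in these shares. The HFD cell placed as B had 2 B lineage genes, 0 UMIs of Cd79a and 8 of Siglech. An ND cell placed as T had 290 UMIs of Cd74 and 0 of Cd3d, Cd3e and Cd3g.

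**Figure D1:**
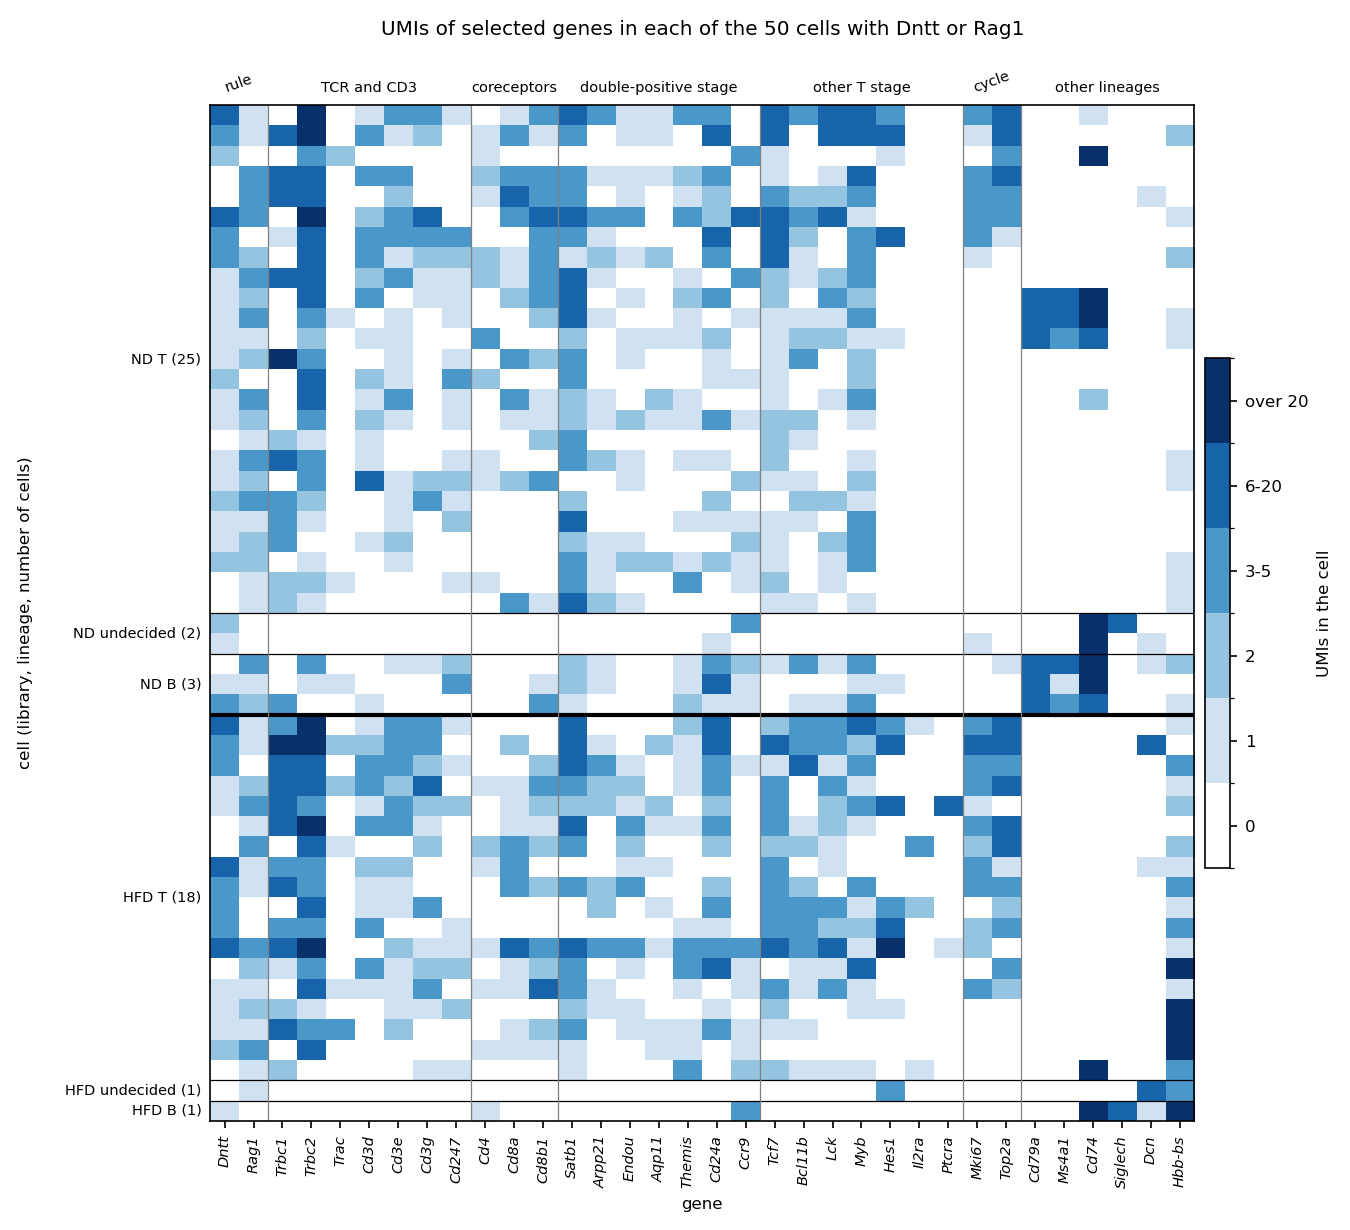
Heatmap of the UMIs of selected genes (columns) in each of the 50 cells (rows), grouped by library and lineage, from white for 0 UMIs to dark blue for over 20. Trbc2 and Satb1 were found in most T lineage cells of both libraries, Cd79a and Ms4a1 in 6 ND cells and no HFD cell, and Hbb-bs exceeded 20 UMIs in 5 HFD cells and no ND cell.

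RNA of the T cell receptor β chain was found in most of the cells. Its constant gene Trbc2 had 0 to 43 UMIs in an ND cell (median 4.5, found in 26 of 30) and 0 to 28 in an HFD cell (median 7.5, found in 17 of 20), which gave 2049 CPM (1795 to 2329) and 1587 CPM (1379 to 1818). Trbc1, the other β constant gene, had 806 CPM (649 to 988) in ND and 870 CPM (718 to 1045) in HFD. The constant gene of the α chain, Trac, whose locus is rearranged after that of the β chain, had only 5 UMIs in 4 ND cells (43.8 CPM, 14.2 to 102) and 11 UMIs in 5 HFD cells (83.9 CPM, 41.9 to 150). β chain RNA was thus present in most cells and α chain RNA in few, whereas 192 of 276 ND and 15 of 22 HFD T cells without Dntt or Rag1, a group for which the constant genes were used to choose cells, had Trac. The CD3 chains Cd3d, Cd3e and Cd3g lay between 228 and 359 CPM in ND and between 206 and 290 CPM in HFD, and the ζ chain Cd247 at 236 and 83.9 CPM.

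The pre-T cell receptor α chain Ptcra, which pairs with a new β chain at the double-negative stage, had 0 UMIs in the 30 ND cells. In HFD it had 18 UMIs, of which 17 were in a single cell and 1 in another. Il2ra (CD25), another gene of that stage, had 0 UMIs in ND and 8 UMIs in 4 HFD cells. Hes1, a Notch target of early T cell precursors, had 28 UMIs in 6 ND cells, 14 of them in 1 cell, and 68 UMIs in 8 HFD cells, 33 of them in 1 cell. The HFD cell with 17 UMIs of Ptcra also had 8 UMIs of Hes1 and 10 cell cycle genes, whereas the one with 33 UMIs of Hes1 had 1 UMI of Ptcra. The early-stage signal thus rested on a few cells and cannot be given as a level of the group.

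Both coreceptors were found in some of the T lineage cells. Cd4 together with Cd8a or Cd8b1 was found in 6 of 25 ND cells (24.0%, 9.36 to 45.1%) and in 6 of 18 HFD cells (33.3%, 13.3 to 59.0%). Cd8 without Cd4 was found in 10 ND and 7 HFD cells, Cd4 without Cd8 in 5 and 0, and neither in 4 and 5. In T cells without Dntt or Rag1, both coreceptors were found in 2 of 276 ND cells (0.725%, 0.0879 to 2.59%) and 0 of 22 HFD cells (interval to 15.4%). Among fibroblasts, a Cd8b1 UMI was found in 1 of 1079 ND and 1 of 459 HFD cells and a Cd4 UMI in 0.278% and 0.436%. After thinning to 1000 UMIs, which left out 1 ND cell of each group, the cells with both were 2 of 24 and 1 of 18, against 0 of 275 and 0 of 22. With all UMIs the intervals lay apart in ND and overlapped in HFD, and at the thinned depth, where few cells kept both genes, they overlapped in both libraries.

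The cells were then set against T cells without a UMI of either gene, which had at least 1 UMI of a CD3 chain and 1 of Trac, Trbc1 or Trbc2 and none of Cd79a, outside both gates. These were 276 ND cells (838366 UMIs, median 2615.5) and 22 HFD cells (124676 UMIs, median 4783.5). They too held RNA of other cell types. The HFD cells had 678 UMIs of mature B cell and MHC class II genes, 343 of them in 1 cell, and 363 of endothelial genes, 263 of them in 1 cell. Erythroid genes had 5140 UMIs in HFD and 6017 in ND, where 3318 were in 1 cell. At this depth 0 UMIs do not show that a cell lacks the RNA, so this comparison group may hold immature cells too. A gene was counted as past 2-fold where its CPM, raised by 10 in either group, differed by that factor; only genes that reached 20 UMIs over the pair of groups entered, and mitochondrial genes did not. By this count 594 of 5158 genes (11.5%) were higher and 704 (13.6%) lower than in T cells without Dntt or Rag1 in ND, and 199 of 1633 (12.2%) higher and 204 (12.5%) lower in HFD. Scaling by the median of ratios in place of all UMIs shifted the ND values by 0.49 on the log2 scale and changed the ND split to 246 higher and 1159 lower, and the HFD split to 180 and 212.

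Genes of the double-positive stage were higher in both libraries. Of a list of 15 such genes, among them Arpp21, Aqp11, Endou, Themis, Satb1, Cd24a, Ccr9 and Tcf12, 12 had enough UMIs in ND and 8 of these were past 2-fold higher and 1 lower, and in HFD 8 had enough and 5 were higher and 1 lower. The median log2 ratio of the list was 1.67 in ND and 1.42 in HFD, beside 0.10 and 0.07 over all genes with enough UMIs. Under the median of ratios the list gave 7 higher and 2 lower in ND and 5 higher and 1 lower in HFD. Cd2 was the member past 2-fold lower in HFD, and Tox, a factor of selected thymocytes, was the one in ND, with 4 UMIs against 69 (log2 ratio -1.23, -3.15 to 0.19). Counted per cell, the T lineage cells with Dntt or Rag1 had a median of 6 of the 15 genes in ND (1 to 13) and 6.5 in HFD (3 to 10), against 2 (0 to 6) and 3 (0 to 5) in T cells without either, and after thinning the medians were 3 and 2 against 1 and 0.

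Arpp21, a thymocyte phosphoprotein gene on chromosome 9, was not used by the rule and had no UMI in either comparison group. It had 26 UMIs in 16 of 30 ND cells (228 CPM, 149 to 334) and 18 UMIs in 9 of 20 HFD cells (137 CPM, 81.4 to 217), with 0 to 5 UMIs in a cell. In T cells without Dntt or Rag1 it had 0 UMIs in all 276 ND and all 22 HFD cells, so it was at least 63.6-fold higher in ND and at least 5.71-fold higher in HFD, with 3 UMIs over the comparison group as the floor. Fibroblasts had Arpp21 in 2 of 1079 ND and 1 of 459 HFD cells. Thinning left Arpp21 in 17.2% of ND and 5.00% of HFD cells.

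Satb1, the chromatin organiser of thymocytes, had 1007 CPM (831 to 1209) in ND against 302 CPM (266 to 341), and 603 CPM (477 to 751) in HFD against 112 CPM (61.4 to 188). Satb1 UMIs were present in 26 ND and 15 HFD cells, with a median of 3 UMIs in each library, and the intervals of the 2 groups did not overlap in either library. Themis, a T cell receptor signalling protein needed for positive selection, had 245 CPM (163 to 354) against 57.3 CPM (42.2 to 75.9) in ND and 153 CPM (93.2 to 236) against 64.2 CPM (27.7 to 126) in HFD, where the intervals overlapped. Cd24a, a surface protein that is lost on maturation, had 482 CPM (363 to 627) against 46.5 CPM (33.1 to 63.6) in ND and 412 CPM (310 to 538) against 16.0 CPM (1.94 to 58.0) in HFD. Ccr9, the receptor for the thymic chemokine Ccl25, had 263 CPM (177 to 375) against 14.3 CPM (7.40 to 25.0) in ND and 107 CPM (58.4 to 179) against 16.0 CPM (1.94 to 58.0) in HFD. Some Ccr9 UMIs were in cells of doubtful label. In HFD the cell with 8 UMIs of Siglech held 3 and the cell with 27 UMIs of Ccr7 held 2. In ND an undecided cell with 8 UMIs of Siglech and the cell with 290 UMIs of Cd74 held 3 each. The HFD intervals barely lay apart, and Ccr9 was not computed without these cells. Endou, an endoribonuclease gene, had 19 UMIs in 15 ND and 20 UMIs in 11 HFD cells, against 4 and 1 in the comparison groups, although endothelial cells also carried it (15.8% of 2405 and 26.2% of 1447 cells). Rhoh, an adaptor of early T cell receptor signalling that is not on the list, was also higher, at 534 against 113 CPM in ND and 420 against 80.2 CPM in HFD.

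**Figure D2:**
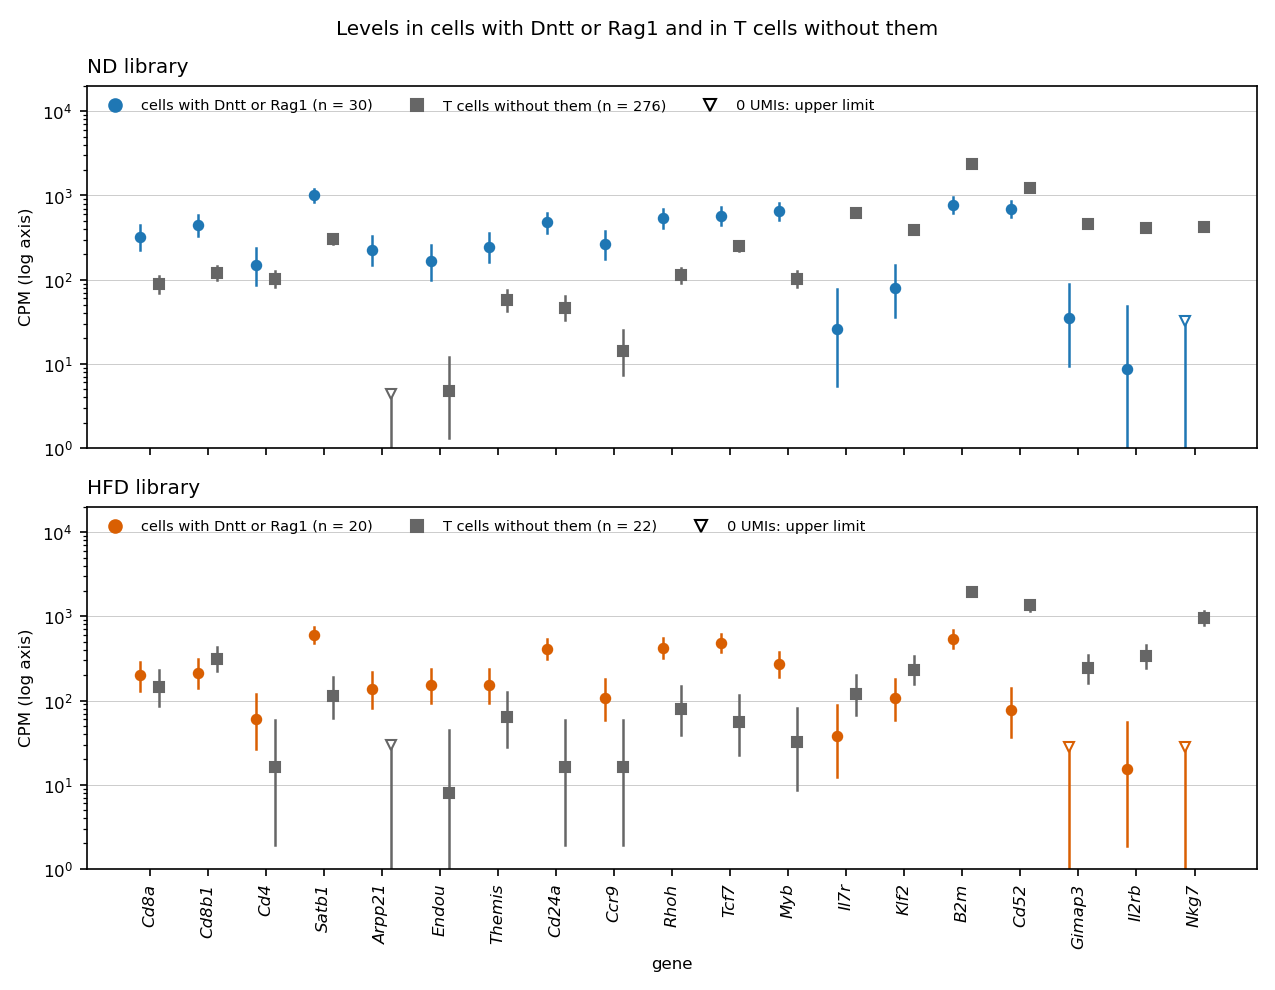
Levels in CPM (log axis) of selected genes in cells with Dntt or Rag1 (coloured circles) and in T cells without them (grey squares), ND above and HFD below; bars are exact 95% Poisson intervals of the summed UMIs and open triangles are upper limits where no UMI was counted. Satb1, Arpp21, Cd24a and Myb were higher and B2m, Il2rb and Nkg7 lower than in T cells without Dntt or Rag1 in both libraries.

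The coreceptor genes differed between the libraries. In ND Cd8a had 324 CPM (228 to 447) against 88.3 CPM (69.3 to 111) and Cd8b1 447 CPM (333 to 587) against 120 CPM (98.1 to 146), so both were past 2-fold higher. In HFD Cd8a had 198 CPM (130 to 291) against 144 CPM (85.6 to 228) and Cd8b1 214 CPM (142 to 309) against 313 CPM (222 to 428), with overlapping intervals. Cd4 had 149 CPM (86.7 to 238) against 103 CPM (82.0 to 127) in ND and 61.0 CPM (26.3 to 120) against 16.0 CPM (1.94 to 58.0) in HFD. Cd8b1 was therefore no mark that set these cells apart from the other HFD T cells, of which 13 of 22 carried Cd8 without Cd4.

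Genes of selection, egress and mature T cells were lower. Of a list of 18 such genes, 16 had enough UMIs in ND, of which 0 were past 2-fold higher and 10 lower, and 12 in HFD, of which 1 was higher and 11 lower; the medians were -1.50 and -1.86 log2. Under the median of ratios 14 of the 16 were lower in ND and 11 of the 12 in HFD. Per cell, T lineage cells with Dntt or Rag1 had a median of 2 of these genes in ND and 4 in HFD, against 7 in both comparison groups. B2m, the invariant chain of MHC class I, had 771 CPM (618 to 949) against 2377 CPM (2274 to 2484) in ND and 542 CPM (423 to 683) against 1965 CPM (1727 to 2227) in HFD. Il7r, the interleukin 7 receptor of naive and memory T cells, had 3 UMIs in 1 ND cell against 614 CPM in the comparison group (log2 ratio -4.55, interval -6.83 to -2.99) and 5 UMIs in 3 HFD cells against 120 CPM (-1.66, -3.47 to -0.12). Klf2, the factor that drives exit from the thymus, had 78.8 CPM against 389 CPM in ND and 107 CPM against 233 CPM in HFD, and S1pr1, the exit receptor, 52.5 against 163 CPM and 7.63 against 120 CPM. Gimap3, a survival GTPase gene of mature T cells, had 4 UMIs in ND against 459 CPM and 0 UMIs in HFD against 241 CPM. The exception was Ccr7 in HFD, the lymph node homing receptor, whose 27 UMIs were all in 1 cell that also had 54 UMIs of Cd74 and 20 of H2-Aa.

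Genes of effector and innate-like lymphocytes were lower, several of them at 0 UMIs. All 9 genes of that list with enough UMIs in ND and all 3 in HFD were past 2-fold lower, with medians of -2.69 and -3.78 log2, also under the median of ratios. Ccl5, a chemokine of effector T and NK cells, had 0 UMIs in the 30 ND cells against 2781 UMIs in the comparison group, at least 126-fold lower, and 2 UMIs in 1 HFD cell against 616. Nkg7, a cytotoxic granule protein gene, had 0 UMIs in either library against 358 and 119, at least 16.3-fold and 41.7-fold lower. Il2rb had 1 and 2 UMIs against 346 and 42, and Gzmb 0 in both against 90 and 63. Of the γδ T cell genes, Trdc had 5 UMIs in 3 ND and 13 UMIs in 5 HFD cells, and Tcrg-C1 1 and 5 UMIs.

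Among the 1619 genes with enough UMIs in both libraries, 91 were past 2-fold higher and 94 past 2-fold lower in both. Apart from the genes of the rule, those with the largest smaller ratio of both libraries were Ly6d, Endou, Sox4, Cd24a, Hes1, Desi1, Myb and Rmnd5a on the higher side, and Ccl5, Nkg7, AW112010, Ms4a4b, Il2rb, Gzmb, Ctla2a, Gimap3, Rgs1 and Icos on the lower. Of the Hes1 UMIs, 14 of 28 in ND and 33 of 68 in HFD were in 1 cell each. Ly6d, a surface protein of early lymphocytes, had 79 UMIs in 18 ND cells and 69 UMIs in 14 HFD cells, against 1 and 0 UMIs in the comparison groups. Its ratio was at least 21.9-fold in HFD, and in ND, with 1 UMI in the comparison group, the log2 ratio was 9.18 with an interval of 6.66 to 14.50. Myb, a factor of lymphoid progenitors and double-positive thymocytes, had 648 CPM (509 to 813) against 103 CPM (82.0 to 127) in ND and 275 CPM (192 to 380) against 32.1 CPM (8.74 to 82.2) in HFD. The transcription factor Tcf7 had 578 CPM against 253 CPM in ND and 488 CPM against 56.1 CPM in HFD, whereas Id2, an antagonist of E proteins that is induced in effector cells, had 43.8 against 292 CPM and 122 against 345 CPM. Of 15 lymphoid transcription factors, 14 had enough UMIs in ND, with 2 higher and 3 lower (1 and 4 under the median of ratios), and 8 in HFD, with 3 higher and 2 lower, so that list had no single direction. Of 16 genes of the double-negative stage, 9 had enough UMIs in ND, with 3 past 2-fold higher and 3 lower (3 and 4 under the median of ratios), and 3 in HFD, with 2 higher and 1 lower. Over all genes with enough UMIs, 11.5% were higher and 13.6% lower in ND, and 12.2% and 12.5% in HFD.

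Other genes of recombination and joining were sparse. Of 13 such genes, 11 of them outside the rule, 3 had enough UMIs in ND and all were past 2-fold higher (2 under the median of ratios), and 2 in HFD, of which 1 was higher. The share higher over all genes with enough UMIs was 11.5% in ND and 12.2% in HFD. Xrcc6, the Ku70 end-binding protein of the joining step, had 20 UMIs in ND against 7 (log2 ratio 4.39, 3.09 to 5.88) and 17 UMIs in HFD against 2 (3.02, 0.94 to 6.17). Prkdc, Xrcc4, Xrcc5, Lig4, Dclre1c, Nhej1 and Atm had 0 to 4 UMIs each in either library, at which no difference was detectable. Hmgb1, a DNA-bending protein that helps the recombinase and is also abundant in many cells, had 1611 CPM against 357 CPM in ND and 2152 CPM against 706 CPM in HFD. Of T cell receptor signalling genes, 2 of 16 were higher and 6 lower in ND (10 lower under the median of ratios) and 2 of 13 higher and 5 lower in HFD, among them Cd28 at 78.8 against 410 CPM in ND and 61.0 against 233 CPM in HFD. Over all genes with enough UMIs, 11.5% were higher and 13.6% lower in ND, and 12.2% and 12.5% in HFD. The signalling genes that were higher were thus near the share over all genes. Bcl2l11 (Bim), a gene that promotes cell death, had 385 CPM against 156 CPM in ND (log2 ratio 1.30, 0.77 to 1.80) and 206 CPM against 152 CPM in HFD (0.43, -0.47 to 1.36). The survival gene Bcl2 had 70.1 against 146 CPM in ND and 38.2 against 168 CPM in HFD. Of 11 genes of cell death and survival, 9 had enough UMIs in ND, with 1 past 2-fold higher and 1 lower (0 and 2 under the median of ratios). These ND shares were near the 11.5% and 13.6% over all genes with enough UMIs. In HFD 5 had enough, with 0 higher and 2 lower, beside 12.2% and 12.5% over all genes.

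Across the 347 thinned T lineage cells of ND, of which 13 had Rag1 and 13 Dntt, the genes whose counts ran most closely with Rag1 were Dntt (Spearman's rho 0.68), Myb (0.51), Gm5914 (0.46), Cd24a (0.44) and Ly6d (0.44). Those nearest to Dntt after Rag1 were Ly6d (0.53), Cd24a (0.52), Ldhb (0.52) and Ccr9 (0.51). In the 49 HFD cells the values for Rag1 were 0.31 with Dntt, 0.29 with Ly6d, 0.20 with Myb, 0.05 with Cd24a and -0.10 with Gm5914. Those for Dntt were 0.58 with Ccr9, 0.48 with Ldhb, 0.37 with Ly6d and 0.19 with Cd24a, so several likenesses seen in ND were weak or missing in HFD. The points of each value share 1 library and a few positive cells, so they describe these cells only.

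Many of the cells expressed cell cycle genes. At least 3 of 13 such genes (Mki67, Top2a and DNA replication and mitosis genes) were found in 8 of 30 ND cells (26.7%, 12.3 to 45.9%) and 14 of 20 HFD cells (70.0%, 45.7 to 88.1%). All of these cells were placed as T lineage by the gene count. They included the doubtful ND cell with 290 UMIs of Cd74 and 0 of Cd3d, Cd3e and Cd3g, which had 10 cycle genes. An HFD cell with 19 UMIs of the fibroblast gene Dcn and 12 cycle genes was also among them. T cells without Dntt or Rag1 had 17 of 276 (6.16%) and 8 of 22 (36.4%), and all other kept cells 4.20% and 5.63%. After thinning to 1000 UMIs the shares were 5 of 29 and 8 of 20 for the cells with Dntt or Rag1, 10 of 275 and 6 of 22 for the comparison T cells, and 0.695% and 0.809% for all other kept cells. The cells with Dntt or Rag1 were thus above all other kept cells at either depth, whereas their intervals overlapped those of the comparison T cells in HFD at both depths and in ND after thinning. Top2a had 368 CPM against 81.1 CPM in ND and 618 CPM against 297 CPM in HFD, and of the 17 genes of the full list 12 of 17 with enough UMIs were past 2-fold higher in ND and 6 of 14 in HFD, with 9 and 4 under the median of ratios, and none lower.

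**Figure D3:**
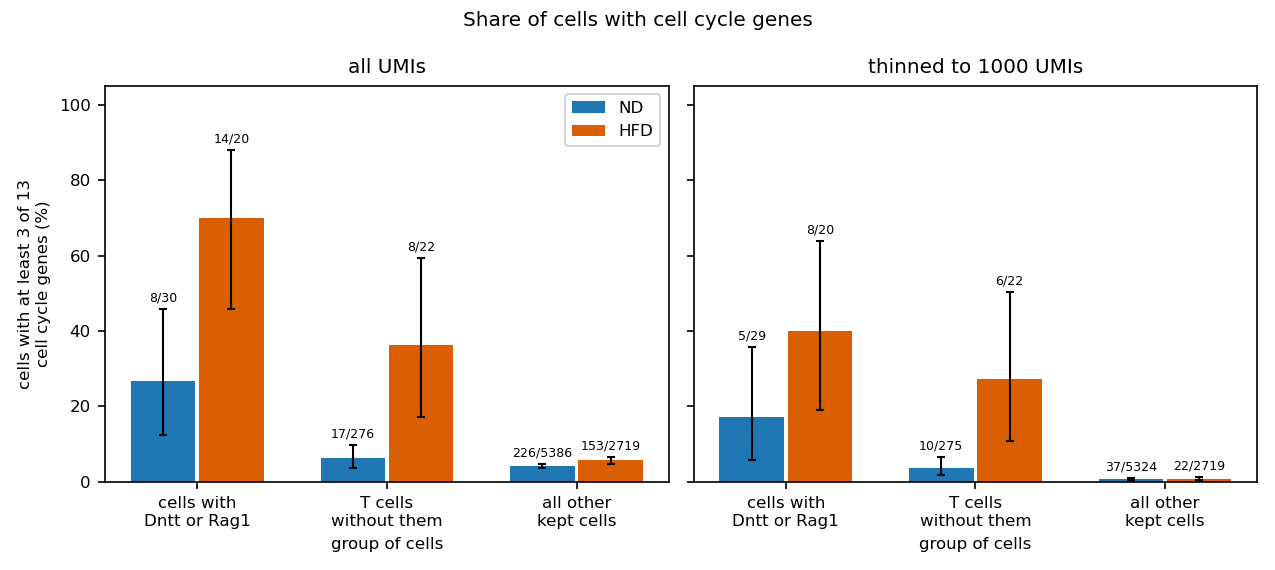
Share of cells (%) with at least 3 of 13 cell cycle genes in 3 groups of cells of each library, with all UMIs (left) and after thinning each cell to 1000 UMIs (right); bars carry exact 95% binomial intervals and the counts above them are cells with the genes over all cells. The share was highest in HFD cells with Dntt or Rag1, 14 of 20 before and 8 of 20 after thinning.

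T lineage cells with and without cell cycle genes differed in depth and, in ND, in Rag1. In ND the 8 cells with cycle genes had a median of 4457 UMIs and Rag1 at 275 CPM (150 to 461), and the 17 without had 1849 UMIs and Rag1 at 1013 CPM (713 to 1396), while Dntt was at 570 and 465 CPM with overlapping intervals. The 8 included the doubtful cell with 290 UMIs of Cd74 and no UMI of a CD3 chain. That cell gave 10039 of the 50901 UMIs of the 8 and 0 UMIs of Rag1, which lowers their Rag1 level. In HFD the 14 with cycle genes had Rag1 at 218 CPM (137 to 331) and the 4 without at 457 CPM (197 to 901), with overlapping intervals. The rule asks for 1 UMI in each cell, which is more CPM in a shallow cell than in a deep one, and the part of this in the Rag1 values was not tested. Ptcra and 7 of the 8 UMIs of Il2ra were in HFD cells with cycle genes, and Arpp21 was found in 5 of 8 and 9 of 17 ND cells with and without them.

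Cells of other make-up stood in the group. In ND, 6 cells had at least 5 T lineage and at least 5 B lineage genes, 3 of them placed as T and 3 as B, and these 6 held all 51 UMIs of Cd79a, all 34 of Ms4a1 and all 94 of Igkc. No HFD cell had such a mixture, and Cd79a, Ms4a1 and Igkc had 0 UMIs there. Vpreb1, Vpreb2, Vpreb3 and Igll1, the surrogate light chain genes of B cell precursors, had 0 UMIs in both libraries, which at this depth does not show that no cell carried them. Without the 6 cells, the T lineage share in ND was 22 of 24 cells (91.7%). The ND excess of B cell genes over T cells without Dntt or Rag1 was also fixed in part by the comparison, which left out cells with Cd79a. An undecided ND cell and the HFD cell placed as B each had 8 UMIs of Siglech, with Irf8, Tcf4 and Bst2 at 6 to 17 UMIs each, genes known from plasmacytoid dendritic cells. A further ND cell placed as T had 290 UMIs of Cd74 and 111 of H2-Aa, and an HFD cell placed as T had 27 UMIs of Ccr7, 11 of Fscn1 and 54 of Cd74. The fibroblast gene Dcn had 19 UMIs in the deepest HFD T lineage cell, which had 12 cell cycle genes and a doublet score of 0.377, the highest of the 50, and 15 UMIs in the undecided HFD cell. Of the 197 UMIs of fibroblast genes in HFD, 94 were in 1 cell, and 85 were in 1 T lineage cell.

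Haemoglobin RNA marked some of the HFD cells. At least 100 UMIs of erythroid genes were found in 5 of 20 HFD cells and 0 of 30 ND cells, beside 10.4% of all HFD and 1.27% of all ND kept cells. In these 5 cells erythroid genes made up 31.5 to 53.3% of UMIs. Computed without erythroid UMIs, the mitochondrial share of 4 of the 5 exceeded 30%, and that of no other cell did, so these 4 passed the filter with the haemoglobin counted. Without the 5 cells, the T lineage share in HFD was 14 of 15 (93.3%) and the share with cell cycle genes 13 of 15 (86.7%). Of the 4 HFD T lineage cells without cycle genes, 3 were among them.

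Between the diets, the cells differed most in genes of other cell types. Of 1682 genes that reached 20 UMIs over all 50 cells, 88 (5.23%) were past 2-fold higher and 177 (10.5%) lower in HFD, and under the median of ratios, a shift of -0.15 on the log2 scale, 119 were higher and 140 lower. The largest ratios above ND were the haemoglobin genes Hbb-bt, Hba-a2, Hbb-bs and Hba-a1, followed by Igfbp5, of whose 160 UMIs 154 were in 1 cell. The largest below ND were Igkc, Cd79a, H2-Ab1, Ms4a1 and Ccl4. All 5 erythroid and all 4 fibroblast genes with enough UMIs were past 2-fold higher, and all 6 such mature B cell genes were lower. The erythroid UMIs came almost wholly from the 5 cells described above, and those of Cd79a, Ms4a1 and Igkc from the 6 ND cells with both lineages. The MHC class II gene H2-Aa was higher in 3 other ND cells, at 20 to 111 UMIs each, than in those 6 cells, at 5 to 13 UMIs each. Whether diet had a part in any of this was not tested.

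Genes of the T cell stages differed in some lists. Of the double-negative genes, all 3 with enough UMIs were past 2-fold, 1 higher (Hes1) and 2 lower in HFD, Myb among the latter. Of the 68 Hes1 UMIs in HFD, 33 were in 1 cell. Among T lineage cells only, 2 genes of that list had enough UMIs, with 0 past 2-fold higher and 1 lower. Of the double-positive genes, 9 had enough UMIs between the diets, with 0 past 2-fold higher and 1 lower in HFD, a share near that of all genes, and of the cell cycle genes 15, with 2 higher and 0 lower (3 higher under the median of ratios). The intervals of the log2 ratio of HFD to ND included 0 for Tcf7 (-0.24, -0.76 to 0.28) and Trbc1 (0.11, -0.30 to 0.52). Cd8b1 (-1.06, -1.78 to -0.37) and Myb (-1.24, -1.86 to -0.64) were lower in HFD beyond counting error, and 2 of the 3 coreceptor genes were past 2-fold lower, 1 of 3 under the median of ratios. The genes of the rule, whose levels it sets in part, stood at -1.08 (-1.76 to -0.42) for Rag1 and -0.23 (-0.81 to 0.35) for Dntt. Whether these differences are larger than those between animals on one diet could not be seen, since each diet had 1 library.

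The mitochondrial limit decided how many such cells were kept. Among all barcodes that failed the filter, 49 of 4818 in ND and 227 of 11486 in HFD carried Dntt or Rag1, all of them above 30% mitochondrial UMIs, and 48 and 205 were T lineage. The gates took out a further 8 ND and 17 HFD kept cells with either gene, most of them with T lineage genes. Outside both gates the barcodes above the limit numbered 48 and 210, against 30 and 20 kept. Just inside the limit, at over 25% mitochondrial UMIs, were 15 ND cells (14 T lineage) and 7 HFD cells (6 T lineage), and just outside it, from 30 to 35%, were 11 ND barcodes (all T lineage) and 7 HFD barcodes (6 T lineage) outside both gates. Over the 48 and 205 T lineage barcodes above the limit, those inside the gates included, Trbc2 stood at 2119 CPM in ND and 1591 CPM in HFD, Satb1 at 1784 and 1173 CPM and Arpp21 at 510 and 196 CPM. Cd4 and Cd8 were found together in 18 of 48 (37.5%) and 65 of 205 (31.7%) of them. Outside both gates, the T lineage barcodes above the limit had medians of 1533 and 1825 UMIs, and at least 3 cell cycle genes were found in 0 of 47 and 14 of 194, beside 8 of 25 and 14 of 18 T lineage cells kept. The T lineage cells kept had medians of 2133 and 5318.5 UMIs, with as few as 969 UMIs in an ND cell. By the medians they were thus deeper, and cell cycle genes were found in more of them. Finding at least 3 genes depends on depth, and the barcodes above the limit were not thinned. The shares with cell cycle genes were therefore compared at unequal depth only.

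**Figure D4:**
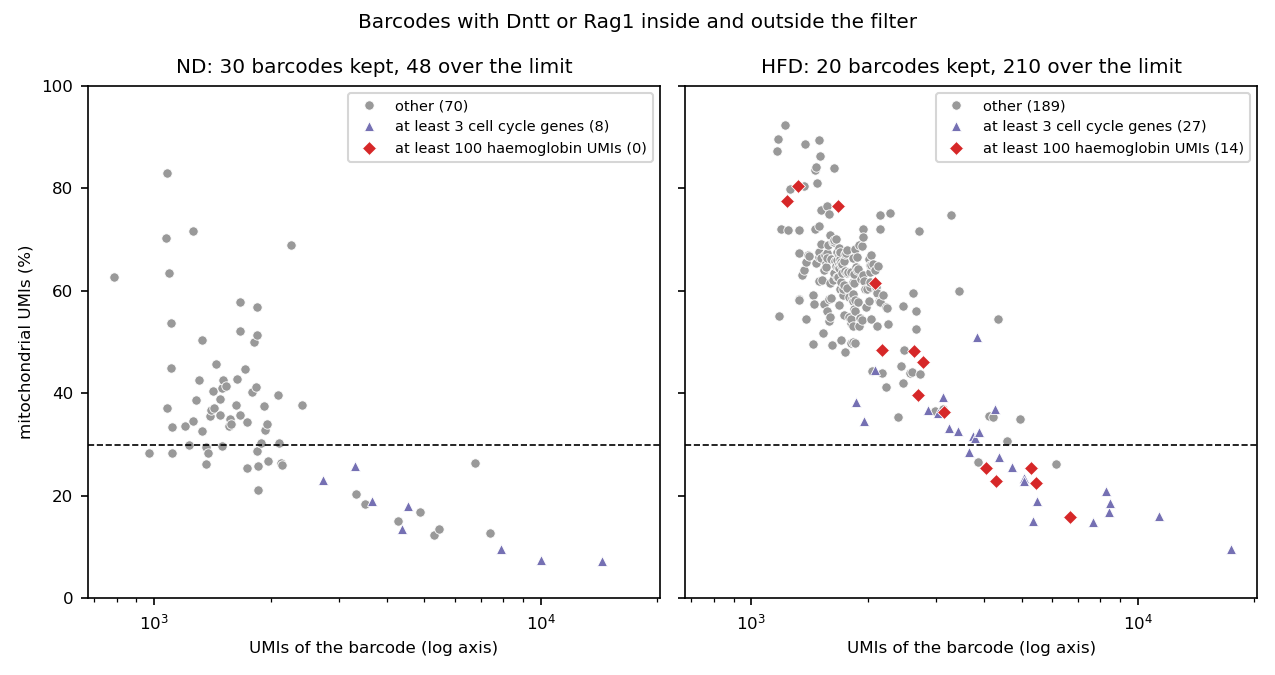
Mitochondrial share of UMIs (%) against UMIs per barcode (log axis) for every barcode with Dntt or Rag1 outside both gates, ND left and HFD right; triangles mark barcodes with at least 3 cell cycle genes, diamonds those with at least 100 haemoglobin-list UMIs, and the dashed line is the 30% limit. In ND 30 barcodes lay within the limit and 48 above it, and in HFD 20 and 210.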

How the data were processed

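Single-cell RNA libraries of the aortic arch (10x Genomics) were made from pooled enzymatic digests. The deposited matrices hold raw UMI counts per gene and barcode, which the authors made with Cell Ranger (3.0.1 in the matrix header) on mm10; the study worked in Seurat 3.2.0. No normalisation had been applied. Here, barcodes were filtered by the study's limits, the rule was applied, and counts were summed per group with Python 3.11.15, numpy 2.4.6, scipy 1.17.1, pandas 2.3.3 and scanpy 1.11.5 (Scrublet). With 1 library per diet, intervals are exact Poisson for CPM, Clopper-Pearson for shares and conditional binomial for log2 ratios; summing and ratios were tested on simulated data. Totals were 27137322 UMIs in ND and 17191279 in HFD over kept cells. Genes were named by fixed lists of function and stage and, in each comparison, by the largest ratios among genes with at least 20 UMIs. The cells, lists and named genes were chosen with earlier results of these data known. Doublets were kept. Promoter sequences came from RefSeq. Scaling, minimum counts, depth, mitochondrial limit, doublets and cell subsets were varied.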

Additional observations from a re-analysis of the deposited data

Results flagged for a closer look

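Barcodes above the 30% mitochondrial limit take part in no comparison of kept cells, yet many carried the genes of the rule. Among T lineage barcodes above the limit and outside both gates, Dntt or Rag1 was found in 47 of 149 in ND (31.5%, exact 95% interval 24.2 to 39.7%) and in 194 of 548 in HFD (35.4%, 31.4 to 39.6%). These barcodes had median depths of 1533 and 1825 UMIs, and 0 and 14 of them had at least 3 cell cycle genes. Below the limit the shares were 7.16% of 349 and 36.7% of 49, so the ND shares above and below the limit lay apart and the HFD shares did not. The shares of fibroblasts kept in the same libraries were 0 of 1079 and 3 of 459, and those HFD fibroblasts were themselves among the cells described here. The cause was not tested.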

How the results depend on the processing

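No paired analysis was possible because each diet had 1 library and no value came from a test. Of 100 alternative values of 14 main results, 76 stayed within the counting interval or within 1.5 times the count and 24 moved; for single genes, 2271 of 2410 values stayed, 133 moved and 6 changed sign. The share of kept cells in ND (0.554%) was 0.355% at a mitochondrial limit of 10%, 0.99% at 50% and 0.998% with none; in HFD (0.730%) it was 1.35% without the gates and 2.21% with no limit. T lineage shares reached 100% at a limit of 10% (3 of 3 ND, 1 of 1 HFD) and, in HFD, with at least 2 UMIs of the pair (16 of 16). At the limit of 10%, the 3 ND cells included the doubtful cell with 290 UMIs of Cd74 and no UMI of a CD3 chain. The 1 HFD cell was the one with 19 UMIs of Dcn and a doublet score of 0.377, so this limit does not show a purer group. The share with Cd4 and Cd8 was 8.33% in ND and 5.56% in HFD after thinning to 1000 UMIs, and 5.56% in HFD with 2 UMIs asked of each. Cell cycle shares were 10.4% in ND and 12.7% in HFD with no mitochondrial limit, and 40.0% in HFD after thinning. Genes past 2-fold against T cells without Dntt or Rag1 in ND were 246 higher and 1159 lower under the median of ratios, and 214 and 333 with at least 50 UMIs, where fewer genes were tested; the latter gave 44 and 69 in HFD. Between the diets, 135 genes were higher without mitochondrial, haemoglobin and ribosomal protein genes, 148 by the mean of CPM per cell, and 17 higher and 45 lower with at least 50 UMIs. Log2 ratios that changed sign were Irf8 (-0.12, ND) and Bst2 (-0.30, HFD) in T lineage cells only, Hbb-bs (0.48) and Hba-a1 (0.33) without haemoglobin-bearing cells in ND, and Igkc (-2.16) and Ebf1 (-0.79) without the 6 ND cells of both lineages. The alternatives without a mitochondrial limit, without haemoglobin-bearing cells and without cells of both lineages were chosen after seeing the data. The cause of other moves was not tested, and at these depths a gene with a few UMIs has an interval of several fold.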
